A study of Mus musculus with 9 samples.

Results

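Fibroblast growth factor (FGF) ligands, receptors and feedback genes were followed through 3 cell populations sorted from embryonic mouse knees. The set holds 34 genes of the 54532 in the deposited table, selected by symbol for their place in the FGF pathway: 16 secreted ligands, 4 FGF homologous factors, 5 receptors and 9 feedback genes. Knees were dissected at E14.5 from embryos that all carried 1 reporter allele at each of 2 loci, written Creb53XHA-P2A-tdTomato/+; Sox9iresEGFP/+. All 3 populations thus carried both reporter alleles and were separated by fluorescence. The tdTomato reporter (red, RFP) follows Creb5, a bZIP transcription factor gene, and the EGFP reporter (green, GFP) follows Sox9, the master regulator gene of cartilage. Cells freed with collagenase were sorted into GFP-only, double-positive and RFP-only populations, with 1 library of each population from each of litters 1, 2 and 5 (n = 3 per population, 9 in all). Each litter was isolated on its own date, so litter and date cannot be told apart.

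FGFs are secreted proteins that bind receptor tyrosine kinases together with heparan sulfate and act mainly through the RAS and ERK kinase cascade. In the limb skeleton, FGFR3 is the receptor of chondrocytes and restrains their proliferation, FGFR1 and FGFR2 serve the surrounding mesenchyme and bone-forming cells, and FGF18 and FGF9 are the ligands best known to reach growing cartilage. FGFRL1 binds FGFs but lacks the kinase domain. Sprouty and Spred proteins, the phosphatase DUSP6 and the membrane protein IL17RD (also called Sef) dampen the cascade, and several of their genes are switched on by it. The FGF homologous factors resemble FGFs in sequence but stay inside the cell, where they bind sodium channels.

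Values are normalized counts as deposited, given for litters 1, 2 and 5 in that order or as mean ± SD (n = 3). Read totals recovered from them lay between 25199258 and 47079305 per library. The reporter hosts, which set the sort, read 37992, 22771 and 25967 for Sox9 in GFP-only, 29767, 16565 and 24088 in double-positive and 1873, 1091 and 1891 in RFP-only libraries, while Creb5 had 203 ± 68.1, 3044 ± 333 and 2959.8 ± 832. The summed level of 14 cartilage genes was 1575330 to 2172310 in GFP-only, 336811 to 923782 in double-positive and 8972 to 17831 in RFP-only libraries. Markers of other cell types were also measured. In the same order of populations, 13 skeletal muscle genes summed to 859 to 2320.1, 1123 to 3533 and 9478 to 35741, 9 endothelial genes to 1075 to 2133, 1370.1 to 5403 and 4911 to 6260.1, and 12 blood and immune genes to 213 to 897, 2664 to 17619 and 1389 to 4718. Of 12 joint interzone genes, 8 were higher in double-positive cells than in the GFP-only population, and 8 were higher and 2 lower in RFP-only cells, with sums of 27546 to 146919, 250288 to 393738 and 429898 to 516714. The muscle list had 11 of 12 tested genes higher in RFP-only cells than in the GFP-only population and 1 in double-positive cells. Of 10 prehypertrophic and osteoblast genes, 10 were lower in RFP-only and 9 in double-positive cells than in the GFP-only population, and of 8 tendon genes 5 were higher in each. Relative to the GFP-only population, 1 of 8 erythroid, 3 of 8 Schwann and neuron and 1 of 6 epidermal genes were higher in RFP-only cells. Of the Schwann and neuron genes, 2 were lower. Of all tested genes, 11.8% were higher and 8.48% lower in RFP-only cells than in the GFP-only population. For double-positive cells these shares were 5.27% and 3.02%. The erythroid and epidermal counts were near that background and are no result about those lists. The GFP-only library from litter 5 held the lowest of the 3 GFP-only values for 17 of the 28 tested FGF genes, against 40.5% of all tested genes.

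Of the 34 genes, 28 reached the mean of 10 normalized counts required for the test and 6 did not (Fgf3, Fgf4, Fgf6, Fgf17, Fgf20 and Fgf22). In RFP-only compared with GFP-only cells, 8 of 10 tested secreted ligand genes and 5 of 9 feedback genes were higher and 3 of 5 receptor genes lower. Against GFP-only cells, RFP-only cells had 15 of the 28 genes higher and 3 lower, where 11.8% and 8.48% of all 17764 tested genes were called in those directions (limma on log2(normalized count + 1), Benjamini-Hochberg adjusted p under 0.05). Double-positive cells had 6 higher and 2 lower than GFP-only cells, against 5.27% and 3.02% of all genes. Compared with RFP-only cells, double-positive cells had 3 genes higher and 2 lower, against 1.8% and 1.05%. Any pair of these comparisons shares the libraries of 1 population. Fold changes below are on the log2(normalized count + 1) scale with their standard error, and adjusted p-values are those of limma over all tested genes; a library is named by its population and litter, and a value in brackets after a left-out library is the adjusted p without it. The median log2 fold change of the 28 genes was 1.69 for RFP-only versus GFP-only, 0.99 for double-positive versus GFP-only and -0.50 for double-positive versus RFP-only cells, beside 0.05, 0.04 and -0.01 over all tested genes. For 17 of the 18 genes called between RFP-only and GFP-only cells the double-positive mean lay between those of the other populations, as it did for 84.0% of all genes so called. Because a gene low in one population can enter the test through another, these counts describe the 28 genes and not all 34. Fgf8, for one, had means of 1.92 in GFP-only, 8.58 in double-positive and 47.8 in RFP-only cells. Of the untested ligands, Fgf17 (11.3 against 0.508) and Fgf3 (17.8 against 6.94) had higher means in GFP-only than in RFP-only cells. Lower means in GFP-only cells were found for Fgf4 (1.93 against 7.19), Fgf6 (1.81 against 3.40), Fgf20 (0 against 1.52) and Fgf22 (6.85 against 7.89). In bulk RNA, fewer expressing cells and less RNA per cell cannot be told apart.

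**Figure D1:**
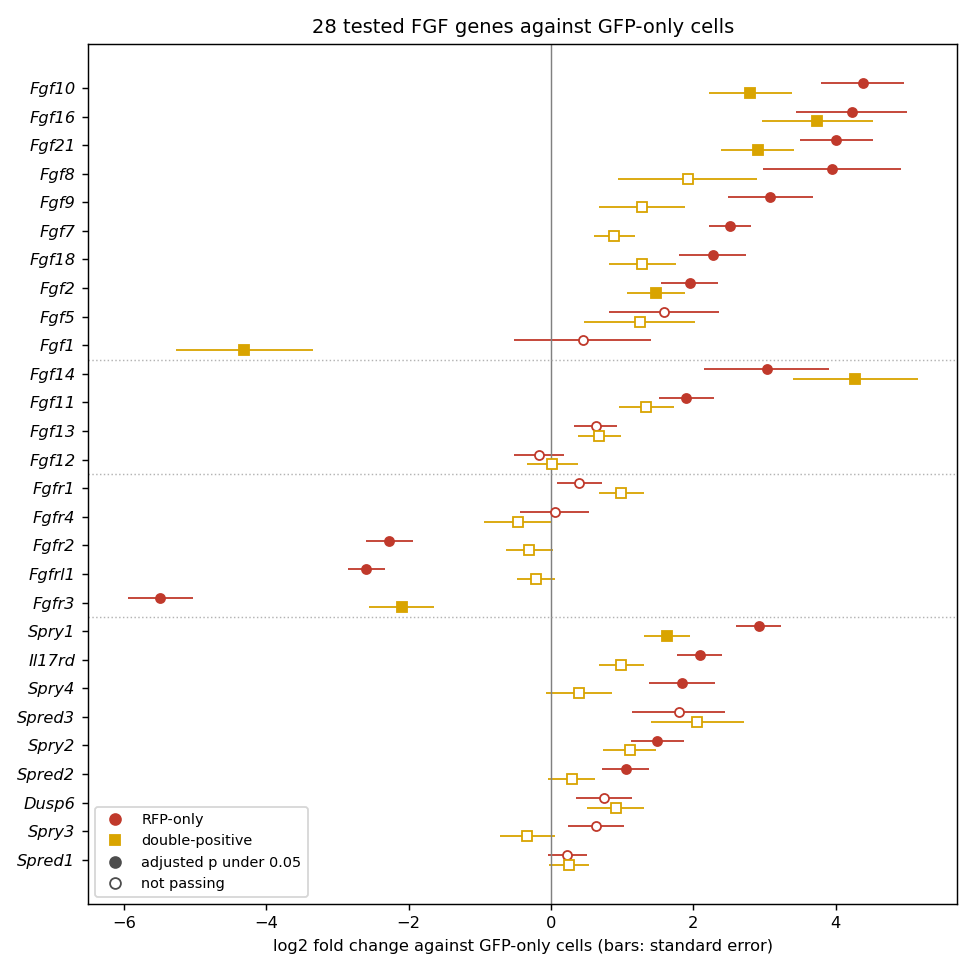
Log2 fold change (x axis) of each of the 28 tested FGF genes (y axis) in RFP-only (circles) and double-positive cells (squares) against GFP-only cells, with standard error bars; filled symbols passed at an adjusted p under 0.05. Ligand and feedback genes lie mostly to the right, with Fgf10 at 4.38 in RFP-only cells, and Fgfr3 lies farthest to the left at -5.49.

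Among the mesenchymal ligands, Fgf10, the limb mesenchyme ligand that signals to epithelium through FGFR2 (ENSMUSG00000021732, plus strand of chromosome 13, 118669791 to 118792115, GRCm38), was higher in both RFP-fluorescent populations than in the GFP-only population. It had 199, 192 and 42.1 normalized counts in the GFP-only libraries, 421, 1385 and 959 in double-positive and 2296, 2117 and 3074 in RFP-only libraries. No values overlapped between the populations, and litter 5 was the lowest of the GFP-only libraries, as it was for the interzone sum. The log2 fold change was 4.38 ± 0.58, adjusted p = 0.000459 for RFP-only and 2.80 ± 0.58, adjusted p = 0.0147 for double-positive versus GFP-only cells, and the difference between double-positive and RFP-only cells did not pass (-1.58 ± 0.58, adjusted p = 0.223). The double-positive call was lost without double-positive litter 2 (0.0738) and with only the 2 populations compared (0.0527), and the difference from RFP-only cells passed without GFP-only litter 5 (0.0391).

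Fgf7, the close relative of Fgf10 known as keratinocyte growth factor (ENSMUSG00000027208, plus strand of chromosome 2, 126034658 to 126091185), was the secreted ligand with the smallest p between the single-reporter populations. Its values were 546, 530.1 and 341 in GFP-only, 599, 1084 and 966 in double-positive and 2925, 2249 and 2819.6 in RFP-only libraries. All RFP-only values were above all others, and Fgf7 was higher in RFP-only cells than in the GFP-only population (2.52 ± 0.29, adjusted p = 0.000186) and lower in double-positive than in the RFP-only population (-1.63 ± 0.29, adjusted p = 0.0129). Double-positive versus GFP-only cells gave 0.89 ± 0.29, adjusted p = 0.0856, which did not pass although the groups did not overlap. On the recovered reads that comparison passed in DESeq2 (adjusted p = 0.0271). The call against RFP-only cells was lost without double-positive litter 1 (0.0603) or RFP-only litter 1 (0.0645) or 5 (0.0672).

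Fgf18, a ligand of the perichondrium and joint, had 319, 735 and 205 normalized counts in the GFP-only libraries, 852, 1516 and 536 in double-positive and 1917, 2026 and 1406 in RFP-only libraries. RFP-only values lay above all GFP-only values (2.27 ± 0.47, adjusted p = 0.00612), whereas the double-positive range crossed both others and neither of its comparisons passed (1.28 ± 0.47, adjusted p = 0.119 against GFP-only and -0.99 ± 0.47, adjusted p = 0.405 against RFP-only cells). Within litters 1, 2 and 5 the log2 ratio of double-positive to GFP-only cells was 1.41, 1.04 and 1.38, and with litter as a block that comparison passed (adjusted p = 0.0285). It also passed without GFP-only litter 2 (0.029). Fgf9, which signals to mesenchyme and forming muscle and bone, had 16.5, 55.1 and 69.2 in GFP-only, 46.1, 127 and 162 in double-positive and 293, 379 and 374 in RFP-only libraries. Its RFP-only libraries stood above the other 6, and it was higher in RFP-only cells than in the GFP-only population (3.08 ± 0.60, adjusted p = 0.00449). Its comparisons of double-positive cells gave 1.28 ± 0.60, adjusted p = 0.216 against GFP-only and -1.81 ± 0.60, adjusted p = 0.166 against RFP-only cells. Per kilobase of exons, Fgf18 was the most abundant secreted ligand of RFP-only cells at 1502 ± 279 normalized counts, followed by Fgf7 at 820.4 ± 112, Fgf10 at 542 ± 111 and Fgf21 at 475 ± 192, and the last pair did not differ beyond their spread. In GFP-only cells Fgf18 stood at 353 ± 235 and Fgf7 at 145 ± 35.2, which did not differ beyond their spread either. Without length scaling, Fgf7 (2665 ± 364) and Fgf10 (2496 ± 509) stood above Fgf18 (1783 ± 331) in RFP-only cells. The order per kilobase thus depends on the annotated exon lengths.

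Fgf2, a ligand stored in the matrix, had 157, 223 and 106 in GFP-only, 251, 520.0 and 618 in double-positive and 559.9, 496 and 774 in RFP-only libraries. Every GFP-only library was below the other 6. It was higher in RFP-only cells than in the GFP-only population (1.95 ± 0.40, adjusted p = 0.00628), and double-positive and RFP-only cells overlapped (-0.47 ± 0.40, adjusted p = 0.779). The call for double-positive versus GFP-only cells (1.47 ± 0.40, adjusted p = 0.0478) was close to the threshold. It was lost with a pseudocount of 0.5 (0.0502), with no filter (0.0694), under quantile normalization (0.0636), with no variance trend (0.0838), with only the 2 populations compared (0.12) and with litter as a block (0.0559). It was also lost without any 1 library other than GFP-only litter 2 or double-positive litter 1 (0.0672 to 0.161).

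Fgf21, an endocrine FGF of liver and muscle that needs the co-receptor beta-Klotho (ENSMUSG00000030827, minus strand of chromosome 7, 45613886 to 45615490), was higher in both RFP-fluorescent populations. It had 16.5, 22.0 and 46.1 in GFP-only, 164, 140.3 and 342 in double-positive and 289, 417 and 649.6 in RFP-only libraries, with log2 fold changes of 2.91 ± 0.51, adjusted p = 0.00688 and 4.01 ± 0.51, adjusted p = 0.000371 against GFP-only cells, each of 1 sign in all 3 litters. All GFP-only values were below all others, and the other 2 populations overlapped (-1.10 ± 0.51, adjusted p = 0.392). Klb, the gene of beta-Klotho, had a mean of 5.94 over the 9 libraries and was not tested.

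Fgf16, a relative of Fgf9, had 0.827, 8.57 and 12.2 in GFP-only, 55.7, 84.2 and 113 in double-positive and 70.1, 92.9 and 224 in RFP-only libraries. The GFP-only libraries were again the lowest, with log2 fold changes of 3.74 ± 0.78, adjusted p = 0.0151 for double-positive and 4.22 ± 0.78, adjusted p = 0.00331 for RFP-only cells, while double-positive versus RFP-only cells gave -0.48 ± 0.78, adjusted p = 0.933. The double-positive call was lost without double-positive litter 2 (0.0607) or 5 (0.0555) and with only the 2 populations compared (0.0515). Fgf8, the ligand of the limb's apical ridge, was low throughout, at 3.31, 2.45 and 0 in GFP-only, 10.6, 5.46 and 9.72 in double-positive and 57.9, 11.3 and 74.2 in RFP-only libraries. It was higher in RFP-only cells than in the GFP-only population (3.95 ± 0.97, adjusted p = 0.015), and its other comparisons gave 1.92 ± 0.97, adjusted p = 0.248 for double-positive versus GFP-only and -2.03 ± 0.97, adjusted p = 0.411 for double-positive versus RFP-only cells. The call rested on RFP-only litters 1 and 5, and was lost without RFP-only litter 1 (0.0752) or 5 (0.0814).

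Fgf1, which can bind every FGF receptor, was the only tested secreted ligand gene that fell in double-positive cells against each of the other populations. It had 24.0, 126 and 57.0 in GFP-only, 12.5, 0 and 0.748 in double-positive and 68.6, 73.6 and 88.2 in RFP-only libraries, from 174, 14 and 218 reads. Double-positive values were below all others, at -4.31 ± 0.96, adjusted p = 0.0207 against GFP-only and -4.75 ± 0.96, adjusted p = 0.0244 against RFP-only cells, while RFP-only versus GFP-only cells gave 0.44 ± 0.96, adjusted p = 0.776. The first call was lost without GFP-only litter 2 (0.0598) or double-positive litter 2 (0.0771) or 5 (0.0623), and the second without double-positive litter 2 (0.0607) or 5 (0.0922) or RFP-only litter 1 (0.0797) or 2 (0.0968) or 5 (0.107). On the recovered reads edgeR passed neither (adjusted p = 0.0706 and 0.118), and a fit of only double-positive and GFP-only libraries gave 0.0759 against GFP-only cells. Fgf5 was measured at 56.9 ± 43.1, 116 ± 54.1 and 168 ± 106 and passed in no comparison.

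The 6 untested ligand genes had few reads. Fgf3 ran from 0 to 33.9 normalized counts, with 57 of its 87 reads in GFP-only libraries, and Fgf17 from 0 to 15.7, with 33 of 41 reads there. Fgf22 ran from 0 to 32.2, Fgf4 from 0 to 17.0 and Fgf6 from 0 to 10.2, the last pair with no read in double-positive cells. Fgf20 had no read in GFP-only cells, 18 in double-positive and 6 in RFP-only cells. A count of 0 allows up to 3 reads, which covers counting error only.

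**Figure D2:**
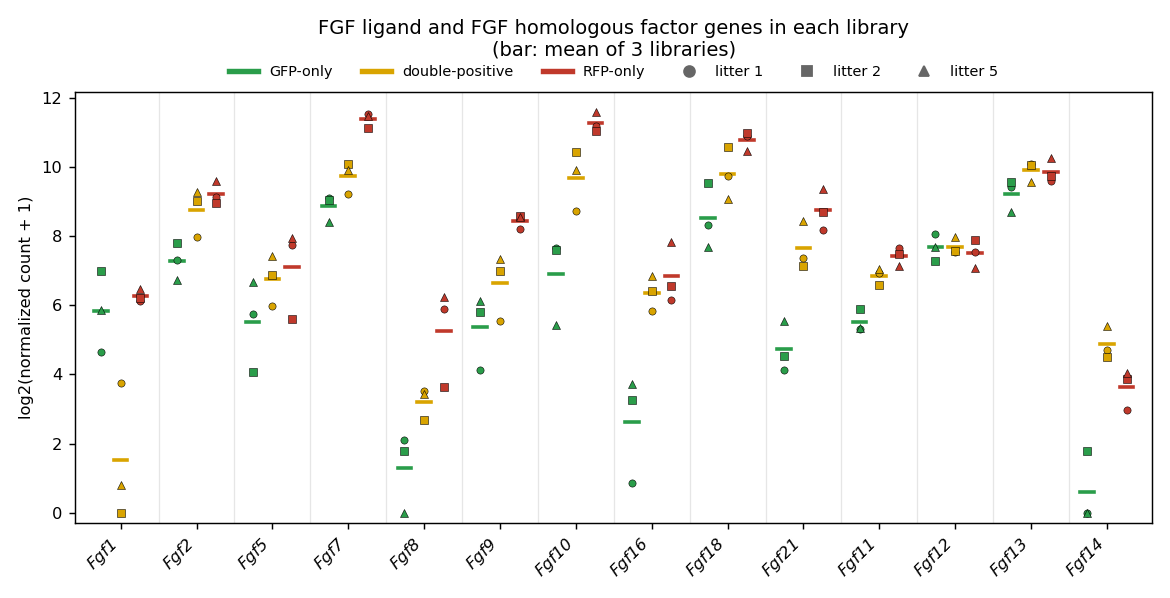
Log2(normalized count + 1) (y axis) of the 10 tested secreted ligand genes and the 4 FGF homologous factor genes (x axis) in each library, coloured by population and shaped by litter, with a bar at the mean of 3 libraries. RFP-only points lie above GFP-only points for Fgf2, Fgf7, Fgf8, Fgf9, Fgf10, Fgf16, Fgf18 and Fgf21, while Fgf1 is lowest in double-positive cells at 12.5, 0 and 0.748 normalized counts.

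Marker genes of other cell types also differed between the populations. In RFP-only versus GFP-only cells, the contrast in which 8 of 10 tested ligand genes rose, 11 of 12 muscle, 5 of 9 endothelial, 6 of 12 blood and immune and 7 of 8 pericyte and smooth muscle genes were also higher, with 1 pericyte and smooth muscle gene lower. The sum of that last list was 14813 to 17848 in GFP-only and 12150.4 to 17760.1 in RFP-only libraries, which overlapped. Of all tested genes, 11.8% were higher and 8.48% lower in RFP-only versus GFP-only cells. RFP-only litter 1 had the lowest muscle sum (9478, against 35741 and 29789 in litters 2 and 5). In that library Fgf9, Fgf16 and Fgf21 were also the lowest of the 3 RFP-only values. Fgf2, Fgf8, Fgf10 and Fgf18 lay between those of litters 2 and 5, and Fgf7 was the highest. In double-positive versus GFP-only cells 1 of 12 muscle, 2 of 9 endothelial and 9 of 12 blood and immune genes were higher. Of the 10 tested ligand genes, 4 were higher and 1 lower there, against 5.27% and 3.02% of all genes. Double-positive versus RFP-only cells had 8 of 12 muscle and 2 of 10 ligand genes lower and none higher. Of all genes, 1.05% were lower in that comparison. The part of the other cell types in the ligand differences was not tested.

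Promoter sequences of RefSeq (GRCm38.p6, from 250 bases before to 50 after a start site) were found for 26 of the 34 genes, with 33 start sites. They were searched on both strands for the cyclic AMP response element TGACGTCA, bound by CREB and ATF family factors, its half-site TGACG (contained in the full site), the AP-1 site TGANTCA, the ETS site CCGGAAG and the SOX core AACAAT. The full element was in none of the 33, against 1.79% of all 32851 promoters. The half-site was in 5 of the 33 promoters (Fgf2, Fgf9, Fgf12, Fgf21 and Spred2), against 20.8% of all promoters. Of these 5 genes, 4 were higher in RFP-only cells than in the GFP-only population, as were 12 of the 26 searched genes. With so few genes this overlap is no result about the site. The AP-1 site was in Fgf12 and Fgf13 (7.81% of all promoters), the ETS site in Fgfrl1 only (8.86%) and the SOX core in Dusp6 only (10.7%). Shown are a pair of rising ligands with a half-site and the receptor gene with an ETS site, picked after the search, with matches on either strand in capitals (CGTCA is TGACG read on the other strand): Fgf9 (chr14:58072436-58072735, plus strand), Fgf21 (chr7:45615441-45615740, minus strand) and Fgfrl1 (chr5:108693979-108694278, plus strand). A match describes the letters of the window and is no evidence of binding.
Fgf9: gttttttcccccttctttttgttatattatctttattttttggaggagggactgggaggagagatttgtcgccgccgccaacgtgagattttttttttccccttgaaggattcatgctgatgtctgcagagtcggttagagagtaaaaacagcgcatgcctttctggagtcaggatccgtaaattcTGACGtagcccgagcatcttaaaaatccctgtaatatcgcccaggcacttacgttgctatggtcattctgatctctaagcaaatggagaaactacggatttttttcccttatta
Fgf21: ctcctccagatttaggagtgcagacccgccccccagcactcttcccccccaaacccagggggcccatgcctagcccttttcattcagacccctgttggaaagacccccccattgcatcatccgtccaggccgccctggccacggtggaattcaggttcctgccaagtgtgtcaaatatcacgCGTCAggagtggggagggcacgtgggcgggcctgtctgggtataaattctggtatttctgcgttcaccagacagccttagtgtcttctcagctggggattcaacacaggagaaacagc
Fgfrl1: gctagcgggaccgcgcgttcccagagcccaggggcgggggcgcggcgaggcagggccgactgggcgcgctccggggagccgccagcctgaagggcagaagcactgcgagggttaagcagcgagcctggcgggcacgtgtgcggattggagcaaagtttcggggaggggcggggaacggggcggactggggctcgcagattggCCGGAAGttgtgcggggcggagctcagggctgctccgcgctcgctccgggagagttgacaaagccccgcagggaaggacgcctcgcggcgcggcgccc

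The FGF homologous factor gene Fgf11 had 38.9, 58.8 and 39.3 in GFP-only, 121, 95.9 and 130.1 in double-positive and 199.6, 178 and 139 in RFP-only libraries. The 3 ranges did not overlap, and RFP-only versus GFP-only cells passed (1.90 ± 0.39, adjusted p = 0.00559). Double-positive cells did not pass against GFP-only (1.34 ± 0.39, adjusted p = 0.057) or RFP-only cells (-0.56 ± 0.39, adjusted p = 0.667). The first of these passed with no variance trend (0.0272) and in DESeq2 (0.00731). Fgf14 was near absent from GFP-only cells, at 0, 2.45 and 0, and had 25.0, 21.8 and 41.1 in double-positive and 6.86, 13.6 and 15.4 in RFP-only libraries. With 2 reads in GFP-only, 109 in double-positive and 32 in RFP-only cells, the ratios to GFP-only cells were 41.1 (95% counting interval 11.1 to 344) and 15.2 (3.88 to 131). These intervals pool the reads of each population and leave out the spread between litters. Both comparisons with GFP-only cells passed (adjusted p = 0.0141 and 0.0323), and double-positive versus RFP-only cells did not (1.24 ± 0.88, adjusted p = 0.686). The first Fgf14 call was lost without double-positive litter 5 (0.0545), and the second without any 1 library other than GFP-only litter 2 or double-positive litter 2 or double-positive litter 5 (0.0504 to 0.114). The first was also lost under quantile normalization (0.0547). The second was also lost with a pseudocount of 5 (0.0607), under quantile normalization (0.219) and with only the 2 populations compared (0.0864), and its log2 fold change of 3.03 ± 0.88 became 1.53 with a pseudocount of 5. Fgf12 (208 ± 56.1, 208 ± 37.3 and 185 ± 50.02 in the 3 populations) and Fgf13 (619 ± 183, 969.6 ± 184 and 945 ± 234) passed in no comparison.

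Of the receptor genes, Fgfr3, that of chondrocytes (ENSMUSG00000054252, plus strand of chromosome 5, 33721674 to 33737068), fell stepwise from GFP-only through double-positive to RFP-only cells. It had 32673, 18524 and 11554 in GFP-only, 3703, 2631 and 9113 in double-positive and 525, 326 and 448 in RFP-only libraries. The ranges did not overlap, but the litter 5 libraries of GFP-only and double-positive cells came close to each other. The log2 fold changes were -5.49 ± 0.46, adjusted p = 2.14e-05 for RFP-only versus GFP-only, -2.10 ± 0.46, adjusted p = 0.0188 for double-positive versus GFP-only and 3.39 ± 0.46, adjusted p = 0.00253 for double-positive versus RFP-only cells. Within litters the second comparison gave -3.14, -2.82 and -0.34, and its call was lost without double-positive litter 1 (0.0699) or 2 (0.0848), and also with no variance trend (0.0608) and with only the 2 populations compared (0.0541). The summed level of the cartilage list was also higher in double-positive litter 5 (923782) than in litters 1 and 2 (351996 and 336811), and its part in the Fgfr3 values was not tested.

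Fgfr2 and Fgfrl1 were lower in RFP-only cells, the population without GFP fluorescence, than in either other population. Fgfr2 had 10267, 7923 and 6442 in GFP-only, 8031, 3863 and 8958 in double-positive and 1447, 1399 and 2296 in RFP-only libraries, with all RFP-only values below all others. It was lower in RFP-only cells than in the GFP-only population (-2.27 ± 0.33, adjusted p = 0.000843) and higher in double-positive cells than in the RFP-only population (1.97 ± 0.33, adjusted p = 0.00972), the latter call being lost without double-positive litter 1 (0.0581) or 5 (0.053) or RFP-only litter 2 (0.0556). Fgfrl1 (ENSMUSG00000008090, plus strand of chromosome 5, 108692382 to 108706924), whose promoter is printed above, had 17476, 13584 and 9801 in GFP-only, 12760.1, 8349 and 14035 in double-positive and 2061, 2451 and 2075 in RFP-only libraries. It showed the same order, at -2.60 ± 0.26, adjusted p = 7.87e-05 and 2.38 ± 0.26, adjusted p = 0.000681, and both calls held in each fit that left out 1 library. Double-positive and GFP-only cells overlapped for both genes (-0.30 ± 0.33, adjusted p = 0.604 for Fgfr2 and -0.21 ± 0.26, adjusted p = 0.648 for Fgfrl1), and the sign of this difference turned without the double-positive litter 2 for both and under quantile normalization for Fgfrl1.

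Fgfr1 and Fgfr4 passed in no comparison. Fgfr1 had 5683, 7442 and 2704 in GFP-only, 9804, 8459.6 and 10688 in double-positive and 5878, 6605 and 6738 in RFP-only libraries, so all double-positive values were above all others. Their differences gave 0.98 ± 0.31, adjusted p = 0.0792 against GFP-only and 0.59 ± 0.31, adjusted p = 0.503 against RFP-only cells. The first passed without GFP-only litter 2 (0.0272) and under quantile normalization (0.0375). The second passed without GFP-only litter 5 (0.047) and with only the 2 populations compared (0.0446). Fgfr4, known from muscle progenitors, had 1400.3, 1041 and 699 in GFP-only, 784, 522 and 949 in double-positive and 437, 1544 and 1684 in RFP-only libraries. RFP-only litter 1 was far below litters 2 and 5, and in the same libraries the muscle regulator Myog read 1470.2, 7813 and 6639 and Myod1 494, 2592 and 1744; the part of muscle cells in the Fgfr4 values was not tested.

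Scaled to exon length, the 4 receptor kinases changed their proportions. Fgfr3 made up 69.9%, 58.8% and 59.6% of their summed level in the GFP-only libraries, 20.6%, 21.1% and 36.5% in the double-positive and 7.87%, 3.54% and 4.34% in the RFP-only libraries. Means were 62.8% ± 6.2, 26.0% ± 9.03 and 5.25% ± 2.3 (SD, n = 3), and no ranges overlapped. Differences in the share were -36.7 percentage points for double-positive versus GFP-only, -57.5 for RFP-only versus GFP-only and 20.8 for double-positive versus RFP-only cells. A two-sided exact permutation test gave p = 0.1 in each of the 3 comparisons (0.1 after Benjamini-Hochberg adjustment), the smallest value that 3 against 3 libraries allow. Fgfr1 took 12.0% ± 4.47 in GFP-only, 39.9% ± 9.04 in double-positive and 54.4% ± 8.53 in RFP-only cells. Shares are parts of a whole, so a lower Fgfr3 level raises the other shares. The summed level was 2709 to 6529, 1746 to 3491 and 932 to 1443 per kilobase in the 3 populations. Fgfr1 itself stood at 534 ± 243, 977 ± 114 and 649 ± 46.9, and did not pass in RFP-only versus GFP-only cells (0.40 ± 0.31, adjusted p = 0.396 in limma). Fgfr2 took 18.6% ± 4.02, 25.8% ± 4.85 and 13.7% ± 2.71, and Fgfr4 6.67% ± 0.614, 8.31% ± 0.584 and 26.7% ± 11.7. Fgfrl1 exceeded each kinase per kilobase in mean level in every population, at 4896 ± 1379, 4211 ± 1072 and 789 ± 79.4. In GFP-only cells its spread met that of Fgfr3 at 2922 ± 1503, and in RFP-only cells Fgfr1 stood near it at 649 ± 46.9. Without length scaling, Fgfr3 (20917 ± 10761) stood above Fgfrl1 (13621 ± 3838) in GFP-only cells and Fgfr1 (6407 ± 463) above Fgfrl1 (2196 ± 221) in RFP-only cells. The files do not separate splice forms, so the b and c isoforms that set ligand choice were not measured.

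**Figure D3:**
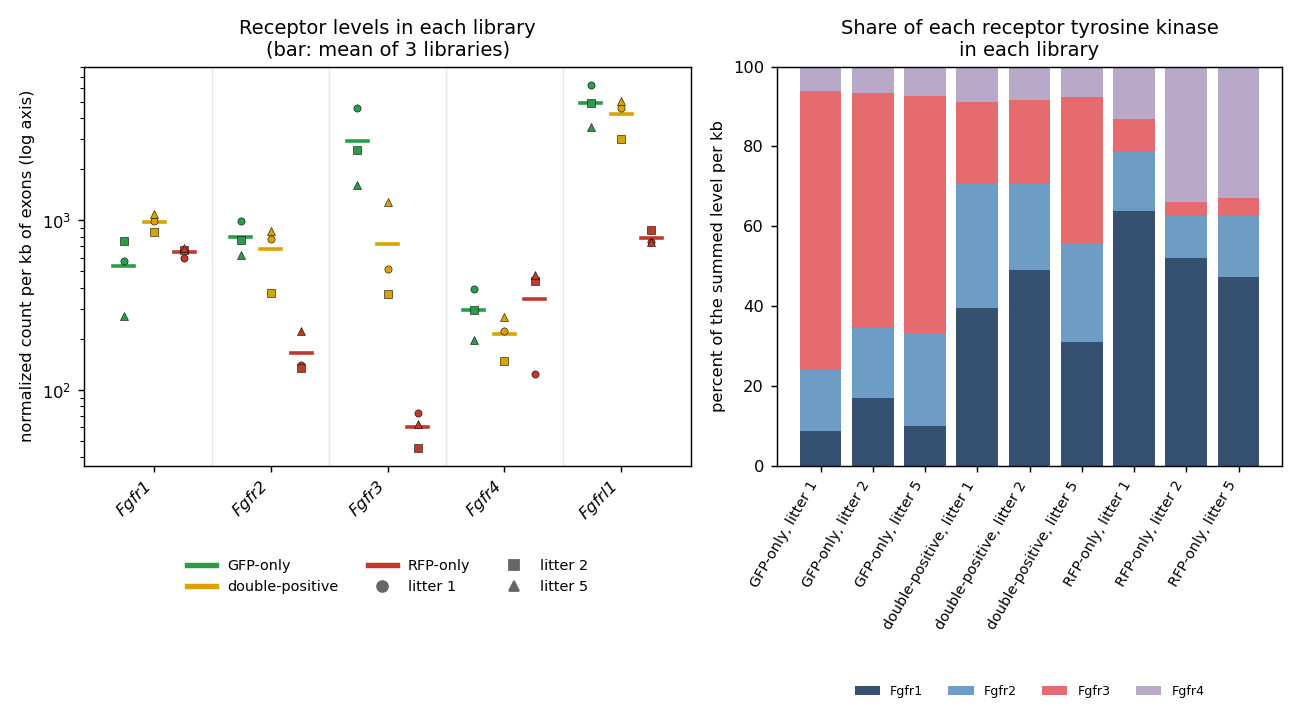
Left, normalized count per kilobase of exons (log axis) of the 5 receptor genes in each library, coloured by population and shaped by litter, with a bar at the mean of 3 libraries. Right, stacked bars of the percent of the summed level per kilobase taken by each of the 4 receptor kinases in each library; the Fgfr3 share goes from 62.8% ± 6.2 in GFP-only to 5.25% ± 2.3 in RFP-only cells.

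Among the feedback genes, Spry1, a Sprouty gene induced by ERK signaling (ENSMUSG00000037211, plus strand of chromosome 3, 37639947 to 37644598), was higher in both RFP-fluorescent populations than in the GFP-only population, and no ranges overlapped. It had 1138, 1043 and 449 in GFP-only, 2396, 2496 and 2649 in double-positive and 6197, 5210.3 and 7131 in RFP-only libraries. The log2 fold changes against GFP-only cells were 1.63 ± 0.32, adjusted p = 0.0112 for double-positive and 2.92 ± 0.32, adjusted p = 0.000134 for RFP-only cells. Double-positive against RFP-only cells gave -1.29 ± 0.32, adjusted p = 0.059, with -1.37, -1.06 and -1.43 within litters. This comparison passed without GFP-only litter 1 (0.0477) or 5 (0.00138). It also passed with a pseudocount of 5 (0.0471), under quantile normalization (0.0198), with only the 2 populations compared (0.00463) and in DESeq2 (0.00263).

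Il17rd had 196, 137 and 259 in GFP-only, 387, 497 and 285 in double-positive and 809.7, 856 and 778 in RFP-only libraries. These ranges did not overlap either, and RFP-only versus GFP-only cells passed (2.09 ± 0.32, adjusted p = 0.00104). Double-positive cells gave 0.99 ± 0.32, adjusted p = 0.081 against GFP-only and -1.10 ± 0.32, adjusted p = 0.106 against RFP-only cells. Both passed without GFP-only litter 5 (0.0318 and 0.0377) and in DESeq2 (0.0262 and 0.0209). The second also passed with only the 2 populations compared (0.0383).

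Spry4 had 673, 460.3 and 366 in GFP-only, 264, 911 and 1069 in double-positive and 1651, 1435 and 2204 in RFP-only libraries, and was higher in RFP-only cells than in the GFP-only population (1.84 ± 0.47, adjusted p = 0.018). The call was lost without GFP-only litter 5 (0.0516) or RFP-only litter 1 (0.0528) or 5 (0.0758), and double-positive litter 1 lay below every GFP-only value (0.39 ± 0.47, adjusted p = 0.637 against GFP-only and -1.45 ± 0.47, adjusted p = 0.155 against RFP-only cells). Spry2 had 183, 127 and 315 in GFP-only, 315, 413 and 564 in double-positive and 479.9, 638 and 539 in RFP-only libraries. RFP-only cells were higher than GFP-only cells (1.49 ± 0.37, adjusted p = 0.0153), a call lost without RFP-only litter 2 (0.061) or 5 (0.0513), and double-positive cells gave 1.10 ± 0.37, adjusted p = 0.0909 and -0.39 ± 0.37, adjusted p = 0.819 against GFP-only and RFP-only cells. The first of these passed without GFP-only litter 5 (0.0208). Spred2 had 377, 264 and 219.8 in GFP-only, 265, 360.2 and 419 in double-positive and 471, 508 and 813 in RFP-only libraries. Its call for RFP-only versus GFP-only cells (1.05 ± 0.33, adjusted p = 0.0464) was lost with no filter (0.0644), under quantile normalization (0.0821), with no variance trend (0.0617), with only the 2 populations compared (0.0776), with litter as a block (0.0641) and in edgeR (0.0532). It was also lost without any 1 library other than GFP-only litter 1 (0.0535 to 0.188), and double-positive cells gave 0.29 ± 0.33, adjusted p = 0.624 against GFP-only and -0.76 ± 0.33, adjusted p = 0.347 against RFP-only cells.

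Dusp6, the ERK phosphatase gene often read as an ERK target, passed in no comparison. It had 2735, 1611 and 2416 in GFP-only, 4353, 2116 and 7609 in double-positive and 3969, 3043 and 4154 in RFP-only libraries, and double-positive litter 5 was the highest of all 9. Its log2 fold changes were 0.91 ± 0.40, adjusted p = 0.184 and 0.75 ± 0.40, adjusted p = 0.205 against GFP-only cells, and the first passed without double-positive litter 2 (0.0467). Immediate-early genes also varied between libraries: the 14 genes of a dissociation stress list summed to 112076 to 374586 in GFP-only, 84731 to 465801 in double-positive and 180563 to 358970 in RFP-only libraries, with 1 of 14 (Socs3) higher than in the GFP-only population in each of the other populations. Double-positive litter 5 had the highest such sum and the highest Egr1 (37445), and the part of these genes in the Dusp6 values was not tested. Spred1 (2954 ± 953, 3419 ± 676 and 3347 ± 446), Spred3 (16.8 ± 5.74, 79.3 ± 42.2 and 65.7 ± 39.6) and Spry3 (159.6 ± 43.0, 128 ± 40.0 and 246 ± 59.1) passed in no comparison. In DESeq2 Spred3 passed in double-positive (0.0168) and RFP-only cells (0.0274) versus GFP-only cells.

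**Figure D4:**
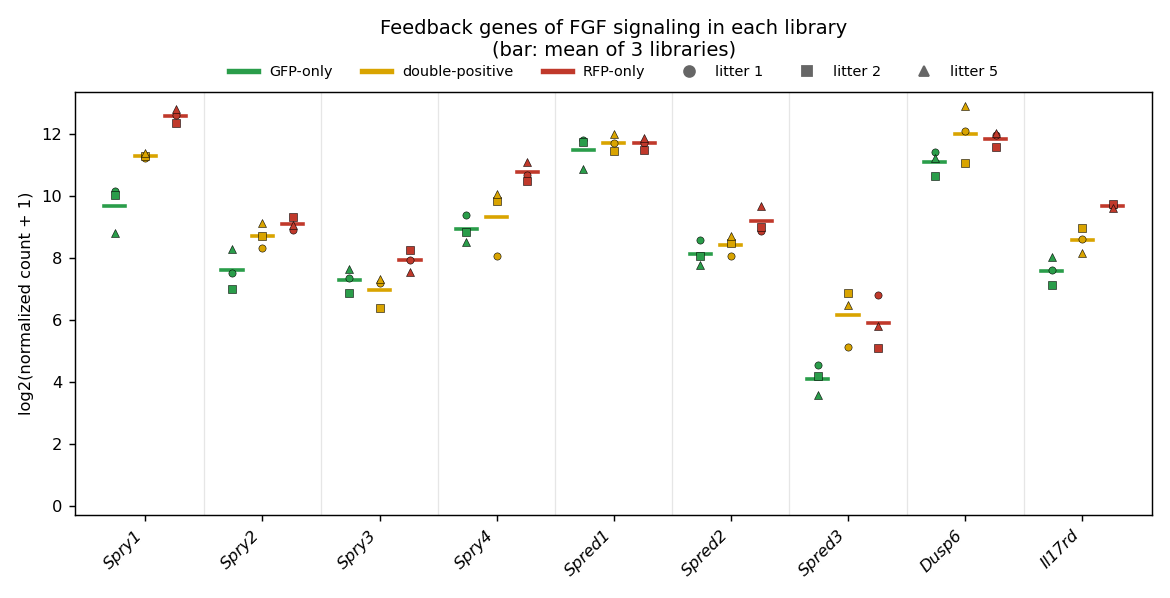
Log2(normalized count + 1) (y axis) of the 9 feedback genes (x axis) in each library, coloured by population and shaped by litter, with a bar at the mean of 3 libraries. The points of Spry1 and Il17rd in the 3 populations do not overlap, and Spred1 means run from 2954 ± 953 to 3419 ± 676 normalized counts.

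Other genes of the pathway were read from 3 further lists. Of 15 ERK-responsive genes outside the set, 3 rose and 2 fell in RFP-only versus GFP-only cells and 10 did not pass, with a median log2 fold change of -0.34. Beside 11.8% of all genes higher and 8.48% lower, these few calls are no result about the list. Epha4 (1.88 ± 0.40, adjusted p = 0.00675), Dusp4 (2.40 ± 0.69, adjusted p = 0.0306) and the ETS factor Etv4 (1.57 ± 0.47, adjusted p = 0.0381) rose, while Spsb1 (-1.96 ± 0.29, adjusted p = 0.000821) and Myc (-1.12 ± 0.32, adjusted p = 0.0318) fell. The Etv4 call was lost without any 1 library other than GFP-only litter 1 (0.0535 to 0.108). The Etv4 call also ended with no filter (0.0555), under quantile normalization (0.0582), with no variance trend (0.0644), with only the 2 populations compared (0.0838) and in edgeR (0.0813). Dusp4 lost its call without GFP-only litter 2 (0.0766) or 5 (0.0512) or RFP-only litter 1 (0.0606) or 2 (0.056) or 5 (0.125), and under quantile normalization (0.0541) and with no variance trend (0.0636). Myc lost its call without GFP-only litter 1 (0.0759) or 5 (0.0775) or RFP-only litter 1 (0.121) or 2 (0.0932), and with no variance trend (0.0758). In double-positive versus GFP-only cells Etv1 rose (1.23 ± 0.27, adjusted p = 0.0191), Spsb1 fell (-1.15 ± 0.29, adjusted p = 0.032) and 13 did not pass. Etv1 lost its call without double-positive litter 1 (0.0528) or 2 (0.0624) or 5 (0.067), and with only the 2 populations compared (0.0522). For Spsb1 it was lost without GFP-only litter 1 (0.0766) or 2 (0.0612), double-positive litter 1 (0.102) or 2 (0.131) or RFP-only litter 1 (0.0541). The Spsb1 call was also lost with no variance trend (0.0785), with only the 2 populations compared (0.0615) and in edgeR (0.0515). Etv5, a standard FGF target, had 3984 ± 1885, 4578 ± 1565 and 2914 ± 536 and passed in no comparison. None of the 15 passed between double-positive and RFP-only cells, where 1.8% of all genes were higher and 1.05% lower.

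Of 32 genes of co-receptors, heparan sulfate and FGF-binding proteins, 28 were tested. In RFP-only versus GFP-only cells 8 rose and 3 fell, and in double-positive versus GFP-only cells 3 rose and 1 fell. Of all genes, 11.8% were higher and 8.48% lower in the first comparison and 5.27% and 3.02% in the second. The numbers that fell were near that background. Sulf1, a sulfatase gene that trims heparan sulfate at the cell surface, had 2039, 1911 and 429 in GFP-only, 19565, 16076 and 13476 in double-positive and 11483, 12144 and 14932 in RFP-only libraries. Both populations with RFP fluorescence stood far above GFP-only cells (3.77 ± 0.48, adjusted p = 0.00149 for double-positive and 3.43 ± 0.48, adjusted p = 0.000643 for RFP-only). Its relative Sulf2 rose too (1.10 ± 0.18, adjusted p = 0.00452 and 0.89 ± 0.18, adjusted p = 0.00532), as did Flrt1, a membrane partner of FGF receptors (1.58 ± 0.34, adjusted p = 0.0162 and 1.82 ± 0.34, adjusted p = 0.00326). The syndecan genes Sdc4 (-2.52 ± 0.42, adjusted p = 0.0018) and Sdc2 (-0.88 ± 0.20, adjusted p = 0.0112) and the perlecan gene Hspg2 (-1.69 ± 0.34, adjusted p = 0.00486) were lower in RFP-only cells than in the GFP-only population, and Sdc2 also in double-positive cells (-0.82 ± 0.20, adjusted p = 0.0325). Flrt1 lost its double-positive call without double-positive litter 2 (0.0713), and with only the 2 populations compared (0.0653). Sdc2 lost its call in RFP-only cells without RFP-only litter 1 (0.0522), and under quantile normalization (0.0601). In double-positive cells its call was lost without any 1 library other than GFP-only litter 1 or GFP-only litter 5 (0.0552 to 0.114). That call was also lost with no filter (0.0554), under quantile normalization (0.157), with no variance trend (0.0793) and with only the 2 populations compared (0.108). Gpc4, a glypican gene, rose in RFP-only versus GFP-only cells (1.41 ± 0.28, adjusted p = 0.0047). Gpc4 alone passed between double-positive and RFP-only cells (-1.25 ± 0.28, adjusted p = 0.0369), a call lost with no filter (0.0523), with no variance trend (0.104) and in edgeR (0.0556). It was also lost without any 1 double-positive or RFP-only library (0.0644 to 0.169).

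Among 29 signal transduction genes, which run from receptor adaptors to the RAF and ERK kinases, 25 did not pass in RFP-only and 27 in double-positive cells relative to GFP-only cells. Of all genes, 11.8% and 5.27% were higher and 8.48% and 3.02% lower in those comparisons, so the list was near the background. None passed between the RFP-fluorescent populations. The scaffold gene Ksr1 (1.90 ± 0.54, adjusted p = 0.0289) and the RAS inhibitor gene Rasa1 (0.88 ± 0.25, adjusted p = 0.0317) rose in RFP-only versus GFP-only cells. The RAF kinase gene Araf fell in RFP-only (-0.65 ± 0.18, adjusted p = 0.023) and in double-positive cells (-0.65 ± 0.18, adjusted p = 0.0445). Each of these 4 calls depended on single libraries. In RFP-only cells Araf was lost without RFP-only litter 1 (0.0839) or 2 (0.0581) or 5 (0.0949). The same call was lost under quantile normalization (0.0852), with no variance trend (0.0508) and with only the 2 populations compared (0.0566). In double-positive cells Araf was lost without any 1 library other than GFP-only litter 5 (0.0586 to 0.157). That call was also lost with no filter (0.0757), with TMM scaling (0.0532), under quantile normalization (0.149), with no variance trend (0.0907), with only the 2 populations compared (0.138), with litter as a block (0.0603) and in edgeR (0.0596). Ksr1 was lost without GFP-only litter 1 (0.0757) or 5 (0.0612) or RFP-only litter 1 (0.0663) or 2 (0.0817) or 5 (0.0993). Its call also ended with no filter (0.0567), under quantile normalization (0.0556), with only the 2 populations compared (0.0541) and in edgeR (0.0575). Rasa1 was lost without GFP-only litter 2 (0.0519) or RFP-only litter 1 (0.106) or 2 (0.0867) or 5 (0.0768). Its call also ended with no variance trend (0.0675), with only the 2 populations compared (0.0762) and in edgeR (0.0503).

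Count models on the recovered reads gave similar numbers of FGF genes called in edgeR, with 7 and 17 of 28 in double-positive and RFP-only cells relative to GFP-only cells and 4 between the RFP-fluorescent populations, where 6.96%, 18.0% and 2.31% of all genes were called. DESeq2 called 12, 19 and 7, where 15.7%, 26.5% and 6.5% of all genes were called. Exons of some of these genes overlap others whose reads cannot be told apart here, since the library kit named in the labels does not mark strand: the antisense gene Gm42922 covers 24.4% of Spry1 exon bases, G630022F23Rik 13.9% of Fgfr3 and Nudt6 9.44% of Fgf2, with means of 27.9, 20.6 and 154 normalized counts over the 9 libraries. The annotated Fgfr2 locus shares 3.04% of its exon bases with Ctbp2 on the same strand. Ctbp2 had a mean of 2464 normalized counts over the 9 libraries, beside 5625 for Fgfr2. Its part in the Fgfr2 values was not tested.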

How the data were processed

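RNA of 9 sorted knee cell libraries was measured by RNA-seq. The authors deposited 1 table of normalized counts for 54532 genes (a signal unit, not raw counts), of which 23956 had no read. Per the submitters' processing notes, mm10, STAR, Salmon, FastQC and DESeq2 were used; versions and roles are not given in the sources used here. The deposited counts equal whole reads divided by DESeq2 median-of-ratios size factors, and 100% of the values came out whole within 0.001 read. Of the gene IDs, 54495 matched the GRCm38 annotation, which gave lengths and positions.

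The main test used log2(normalized count + 1) of 17764 genes with a mean of at least 10 in limma (version 3.58.1, R version 4.3.3) with its trend option, over all 9 libraries, with Benjamini-Hochberg adjusted p under 0.05. It was also run on simulated counts with known changes in RFP-only cells. The simulation held no litter effect, so it does not show how the test handles these litters. Recovered reads were also tested in edgeR (4.0.16) and in DESeq2 (1.42.0), and other pseudocounts, filters, scalings, a litter block and left-out libraries were tried. Levels between genes were scaled to the union of exons. Per the labels, libraries of 1 litter share embryos of that litter and their isolation date; deviations from the population means had a median correlation of 0.103 (-0.0353 to 0.149) over 9 same-litter pairs and -0.0409 over 18 other pairs. No replicates agreed within sampling noise (smallest chi-square per degree of freedom 47.1). Nothing else in the labels separates animals. The p-values of the main test measure the spread between libraries of different litters within a population, pooled over the populations. That test did not pair libraries by litter.

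The 34 genes and all lists were chosen with earlier results of these data known. Genes of the set that passed in any comparison are named with all values, other tested ones by mean and SD, and untested ones by range. From each other pathway list, up to 3 passing genes per direction and comparison with the smallest adjusted p are named, except for results that are not reported here; Etv5, Klb, Myog, Myod1, Egr1 and Socs3 were named after their values were seen.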

Additional observations from a re-analysis of the deposited data

How the results depend on the processing

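Over all alternatives, 1134 values of the 19 called genes were recomputed, for each gene in every comparison, also those without a call in the main fit. Of these values, 1040 kept their direction and side of the threshold, 71 lost the call, 18 gained one and 5 turned direction. The 5 were Fgfr2 in double-positive against GFP-only cells without double-positive litter 2 (0.073), Fgfrl1 in the same comparison under quantile normalization (0.11) and without double-positive litter 2 (0.014), Fgf1 in RFP-only against GFP-only cells without GFP-only litter 1 (-0.15), and Fgf16 in double-positive against RFP-only cells without RFP-only litter 5 (0.0049). None of these had passed. With 1 library left out at a time these 4 differences ran from -0.53 to 0.073 for Fgfr2, -0.43 to 0.014 for Fgfrl1, -0.15 to 1.02 for Fgf1 and -0.83 to 0.0049 for Fgf16. Among double-positive against GFP-only cells the 8 calls became 3 when only those populations entered the fit and 4 to 9 with 1 library left out at a time. The 5 calls between double-positive and RFP-only cells became 8 with those populations alone and 3 to 9 with 1 library left out, the 9 without GFP-only litter 5. The 18 calls of RFP-only against GFP-only cells became 13 to 17 with 1 library left out. A call could be lost only among these 18, 8 and 5 calls. The 1040 unchanged values therefore do not measure how often a call held. Among the 8 calls of double-positive against GFP-only cells, only those of Fgf21 and Spry1 held in every alternative. The cause of these changes was not tested.

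With the litter as a replicate block, Fgf2 in double-positive (0.0559) and Spred2 in RFP-only cells (0.0641) lost their calls against GFP-only cells and Fgf18 in double-positive cells gained one (0.0285); the block changed no other call of these 19 genes. The Fgfr3 share kept its sign throughout, with differences of -41.9 to -33.1, -59.5 to -53.9 and 15.6 to 23.5 percentage points with 1 library left out. Over all genes, double-positive against GFP-only cells gave 1472 calls, 697 with those populations alone and 2780 in DESeq2, and double-positive against RFP-only cells 506, 1008 and 1152. Genes with a mean under 10 normalized counts, such as Fgf4 and Fgf6 (28 and 13 reads over the 9 libraries), did not enter the main test. For these genes low expression and limited depth cannot be told apart.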
